A study of Mus musculus with 15 samples.

Results

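The axon guidance ligands and receptors were followed through the first 48 h of culture of mouse dental mesenchymal cells (mDMCs). They were taken as every row of the expression table whose transcript belongs to a semaphorin of classes 3 to 7, a plexin, a neuropilin, an Eph receptor, an ephrin, a Slit, a Robo, a netrin or an Unc5 receptor. By these names 59 of the 12089 transcripts in the table were chosen, 1 for each of 59 genes, of which 32 encode ligands and 27 receptors. The rule used the gene names and no measured value, though it was set with earlier results of these data known. Epha10, Epha8, Ntn5, Plxnb3, Robo3, Sema4a, Slit1 and Unc5a bear matching names and have no row in the table, so they were not analysed here. All 59 passed the filter on low values that left 12079 transcripts for testing, and their scores lay between 2 and 16542 with none at 0.

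The cells came from the molar germs of ICR mouse embryos at embryonic day 14.5, and the labels name no engineered allele. RNA of freshly isolated cells (0 h, 3 libraries) and of cells kept in serum-containing medium for 12 h (2 libraries), 24 h, 36 h and 48 h (3 libraries each) was sequenced, and 1 library was made from the undissociated mesenchymal tissue. The freshly isolated cells had already been through dispase and trypsin, and every cultured group shares that step and the serum. The labels name no separate animals or cultures for the replicates, so the p-values below measure only the spread between these libraries.

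Axon guidance genes encode short-range and secreted cues together with the cell surface receptors that read them. Semaphorins act through plexins, and the secreted class 3 members mostly need a neuropilin as the binding partner. Ephrins and Eph receptors sit on opposing cells and signal in both directions, Slits repel cells that carry Robo receptors, and netrins attract or repel according to whether Dcc and neogenin or Unc5 receptors are present. Outside the nervous system the same genes shape blood vessels, neural crest streams and tissue borders, and in the developing tooth they are known for timing the entry of nerve fibres.

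Expression is given as the deposited score, a normalized whole number whose distribution is the same in each library (median 721, largest value 127101). Scores were compared between libraries for 1 gene at a time, because it is not stated whether transcript length is part of the scale. The sums of marker scores given below are the exception. They add different genes on that unknown scale and mostly follow the genes with the highest scores. Changes are log2 differences of (score + 1) with their standard errors, from limma fitted over all 14 mDMC libraries, and a gene was said to rise or fall where the Benjamini-Hochberg adjusted p over the 12079 transcripts was below 0.05. The added 1 makes changes of genes with low scores look smaller than they were.

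At 48 h, 42 of the 59 guidance genes had fallen from 0 h, 9 had risen and 8 did not pass the test. Over all transcripts tested 34% fell and 37.1% rose. The median change of the guidance genes was -1.20, against 0.03 for all transcripts. With a change of more than 2-fold required as well, 31 fell and 6 rose, where 15.8% and 16.1% of all transcripts did. Ligands and receptors both lay on the low side, with 23 of 32 ligands lower and 4 higher (median -1.40) and 19 of 27 receptors lower and 5 higher (median -0.90).

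Many of the changes were already present at the first culture time. At 12 h 33 guidance genes were lower and 12 higher (median -0.82), where 28.3% and 29.9% of all transcripts were. The counts were 41 lower and 11 higher at 24 h (background 31.8% and 35%) and 40 lower and 8 higher at 36 h (background 34% and 36%). These comparisons share the 0 h libraries and are not independent of each other. Between neighbouring times few guidance genes moved, with 8 lower and 4 higher from 12 h to 24 h (background 3.67% and 4.59%), and 7 lower and 6 higher from 24 h to 36 h (background 9.64% and 10%). From 36 h to 48 h none passed in either direction, where 0.0248% of all transcripts fell and 0% rose. At an unadjusted p below 0.05 that last step held 6 higher and 3 lower guidance genes, beside 6.4% and 6.99% of all transcripts.

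**Figure D1:**
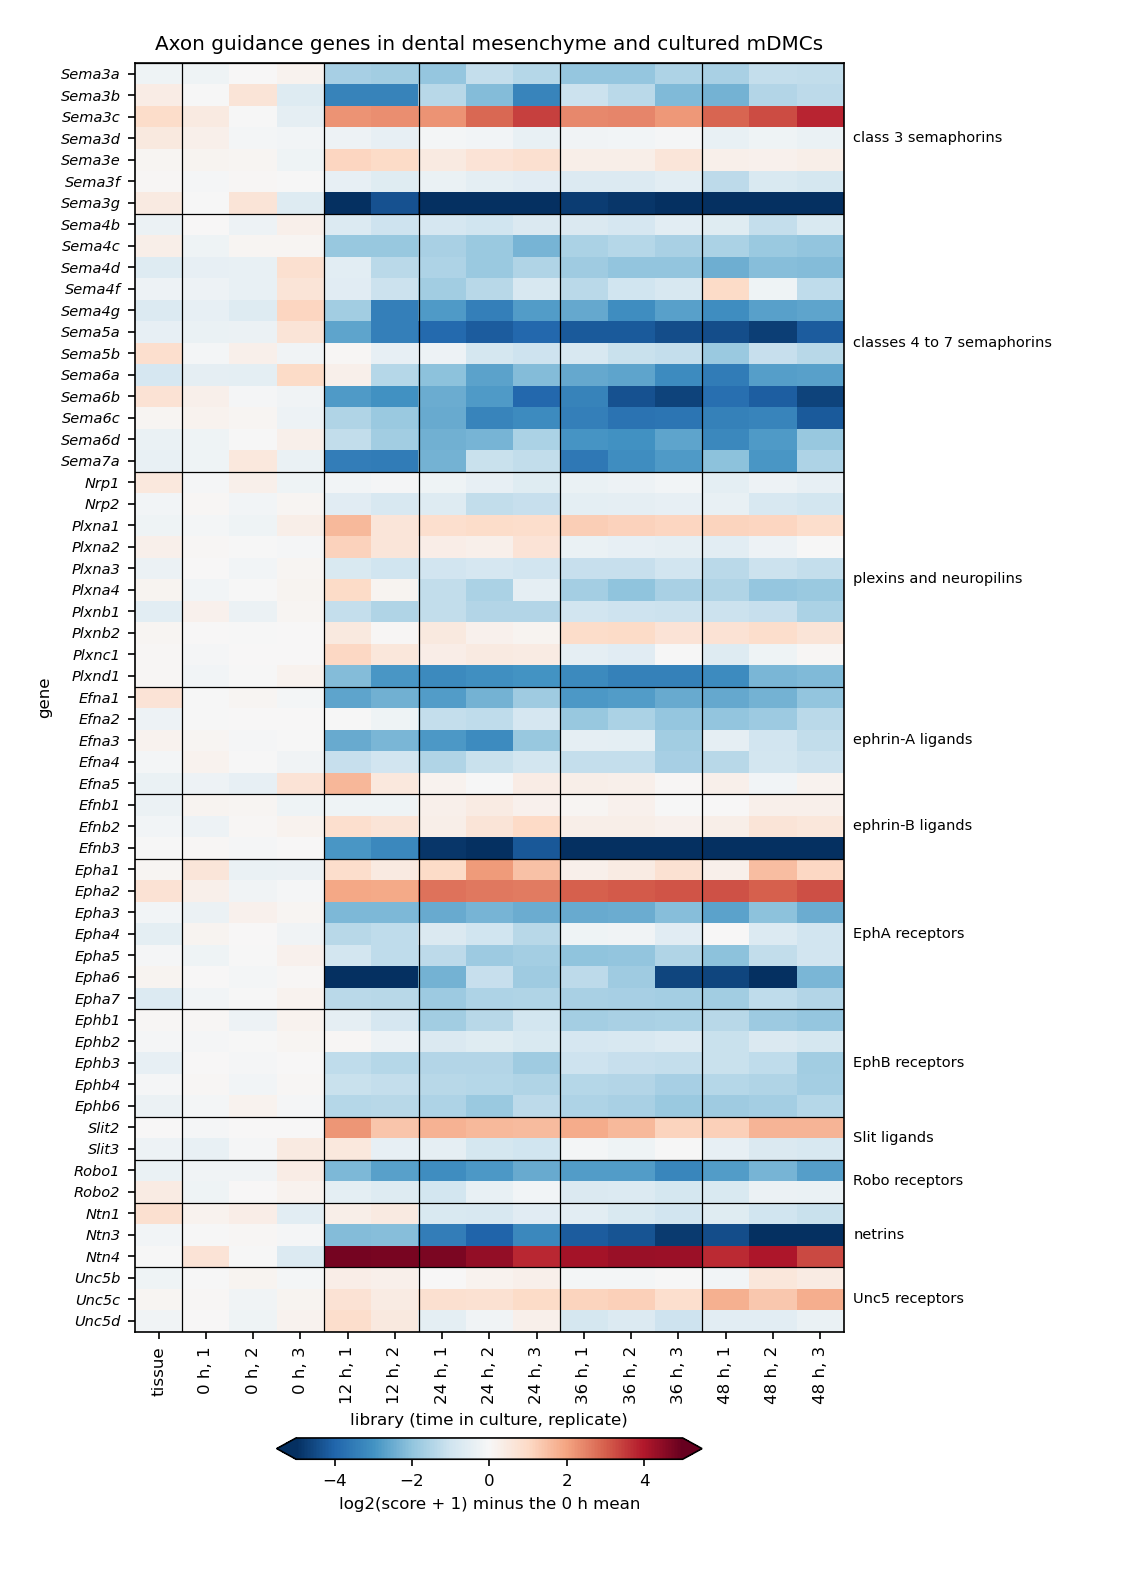
Log2(score + 1) of each of the 59 guidance genes (rows, by family) in each of the 15 libraries (columns), as the difference from the gene's 0 h mean, with colour in log2 units from -5 to 5. The culture columns from 12 h to 48 h are mostly blue, and Sema3c, Epha2, Slit2 and Ntn4 stand out in red in every culture library.

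Libraries and cell makeup set limits to these values. The third 0 h library deviated from its group with transcript length (median log2 deviation 0.14 among the longest transcripts when they were put into 5 equal length classes, -0.15 among the shortest). The 12 h libraries differed from each other in the same way, the first at 0.16 and -0.19 and the second at -0.16 and 0.19, and with 2 libraries it cannot be said which of them stood apart. Guidance transcripts are long (median 4340 bases, against 2886). Within the longest class 17 of 24 guidance genes fell at 48 h, beside 45.4% of all transcripts there, and in the shortest class 3 of 4 fell beside 27.9%. The rows of Nrp2, Sema3e, Sema4b, Sema5b and Slit2 carry retained-intron transcripts, those of Plxna3, Plxnb2 and Sema6c processed transcripts, and those of Epha4 and Sema3b transcripts subject to nonsense-mediated decay, and it was not stated whether their values stand for the whole gene. The first 2 libraries of 36 h were the most alike of any replicate pair (root mean square log2 difference 0.288, against 0.354 to 0.549 for the others), and without counts it could not be tested whether they are separate samples.

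Markers of several other cell types also changed in culture. At 0 h the 12 endothelial markers summed to 11387 to 13491, at 48 h to 3054 to 4880, and 10 of 12 fell, with Tie1, Robo4, Cldn5, Cdh5 and Plvap between 0 and 5 in every 48 h library while Flt1 and Eng rose. Red cell markers summed to 97654 to 150514 at 0 h and to 51 to 168 at 48 h (6 of 6 with a row lower), and glial markers to 2192 to 2627 and 206 to 271 (3 of 4 lower, none higher). Neuronal markers summed to 1711 to 2291 and 1458 to 2889 (2 of 6 higher, 3 lower), macrophage markers to 859 to 1109 and 439 to 768 (3 of 4 lower), and muscle markers to 228 to 1319 and 802 to 1751 (none of 5 passed). Epithelial markers ranged from 1700 to 17313 at 0 h, the highest sum being in the first library, and from 561 to 1900 at 48 h (4 of 8 lower). The dental mesenchyme list itself, with a row for all 12 genes, went from 85415 to 102135 at 0 h to 49978 to 59720 at 48 h (8 of 12 lower). Prrx1 alone scored 40667, 40667 and 50479 of that sum at 0 h and did not pass in limma at 48 h (-0.39, adjusted p = 0.163). The endothelial sums at 48 h were mostly Flt1 (2608, 1836 and 1386) and Eng (1410, 1327 and 1173), which rose. The part of these shifts in the results below was not tested, and in bulk RNA fewer cells of a type and less RNA per cell cannot be told apart.

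Class 3 semaphorins, the secreted ligands, moved in both directions, with 5 of 7 lower and 1 higher at 48 h. Sema3g, known from endothelial cells, scored 350, 543 and 227 at 0 h, 9 and 16 at 12 h, 6, 8 and 6 at 24 h, 12, 11 and 8 at 36 h, then 3, 8 and 10 at 48 h. Every culture library lay far below every 0 h library, and the fall at 48 h was -5.58 ± 0.44 (adjusted p = 1.64e-07), with nearly all of it present at 12 h (-4.75 ± 0.49). Sema3c, which in the embryo is required for the cardiac outflow tract, went the other way. Its scores were 539, 395 and 290 at 0 h, 1869 and 1983 at 12 h, 1858, 2899 and 4229 at 24 h, 2103, 2150 and 1775 at 36 h, with 2963, 3782 and 5487 at 48 h. The lowest culture library was above the highest 0 h library, and the rise at 48 h was 3.32 ± 0.29, or 9.96-fold (adjusted p = 4.45e-07).

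The promoter windows of this opposed pair are shown because they stand for the strongest fall and rise of the family. Each covers 250 bases before and 50 after a gene start in RefSeq (build GRCm38.p6), and capitals mark matches to the GC box GGGCGG, searched on both strands together with the TATA box TATAAA, the E-box CACGTG and the AP-1 site TGANTCA. The Sema3g window is chr14:31217623-31217922 on the plus strand, and the Sema3c window is chr5:17574566-17574865 on the plus strand, which does not hold the start of the transcript listed in the table.
Sema3g: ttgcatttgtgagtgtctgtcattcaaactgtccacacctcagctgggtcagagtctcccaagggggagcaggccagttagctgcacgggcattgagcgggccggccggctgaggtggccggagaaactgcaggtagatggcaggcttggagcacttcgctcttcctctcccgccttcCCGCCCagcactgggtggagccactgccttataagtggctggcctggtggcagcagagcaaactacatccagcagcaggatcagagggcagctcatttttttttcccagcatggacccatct
Sema3c: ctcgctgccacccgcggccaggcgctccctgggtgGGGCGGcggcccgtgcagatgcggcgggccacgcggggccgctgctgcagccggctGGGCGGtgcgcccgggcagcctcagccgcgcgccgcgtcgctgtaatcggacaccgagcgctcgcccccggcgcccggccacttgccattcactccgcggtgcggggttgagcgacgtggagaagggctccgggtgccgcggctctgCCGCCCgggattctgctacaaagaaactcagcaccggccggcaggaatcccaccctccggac
The Sema3g window held 1 GC box and 8 CpG, the Sema3c window 3 GC boxes and 42 CpG, and none of the other motifs was found in either.

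Sema3b was lowest at 12 h. It scored 249, 403 and 164 at 0 h, 24 and 24 at 12 h, 96, 56 and 25 at 24 h, 121, 100 and 54 at 36 h, then 49, 91 and 103 at 48 h. All culture libraries were below all 0 h libraries, with a change of -3.35 ± 0.54 at 12 h (adjusted p = 0.000164) and of -1.71 ± 0.48 at 48 h (adjusted p = 0.0063). None of the later steps passed (adjusted p = 0.24 from 12 h to 24 h, 0.293 to 36 h and 0.926 to 48 h). Its neighbour Sema3f, the Nrp2 ligand 76 kb away on chromosome 9, fell less (-0.98 ± 0.13 at 48 h). Sema3a, the growth-cone-collapsing cue that keeps nerve fibres out of the early tooth germ, fell from 3841, 4535 and 5044 at 0 h to 1427, 1950 and 1889 at 48 h (-1.35 ± 0.18, adjusted p = 2.38e-05). Sema3d changed by -0.31 ± 0.12 (adjusted p = 0.0284), a call lost when any of 3 libraries was left out, being -0.17 without the first 0 h library. Sema3e, the ligand that binds Plxnd1 without a neuropilin, was higher at 12 h (1.02 ± 0.14, adjusted p = 4.59e-05) and did not pass at 48 h (0.26 ± 0.13, adjusted p = 0.0818).

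The transmembrane and membrane-anchored semaphorins of classes 4 to 7 were the family with the lowest median at 48 h, -2.45, with 11 of 12 lower and none higher. Sema5a, which carries thrombospondin repeats beside its semaphorin domain, scored 3616, 3738 and 7069 at 0 h, 732 and 431 at 12 h, 304, 257 and 300 at 24 h, 249, 248 and 213 at 36 h, with 213, 174 and 256 at 48 h. No culture library came near the 0 h range, and the change at 48 h was -4.43 ± 0.25, or 21.5-fold down (adjusted p = 8.95e-09). The third 0 h library, which deviated with length, was the high one, and without it the change was -4.11.

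Class 6 semaphorins, transmembrane ligands of the A-type plexins, fell in all 4 members. Sema6b scored 145, 116 and 107 at 0 h, 16 and 14 at 12 h, 21, 16 and 7 at 24 h, 11, 5 and 4 at 36 h, then 8, 6 and 4 at 48 h. The groups did not overlap, and the change at 48 h was -4.17 ± 0.45 (adjusted p = 2.88e-06), although at scores this low it shrank to -3.05 when 10 instead of 1 was added before the logarithm. Sema6c went down in steps, from 517, 498 and 382 at 0 h to 163 and 126 at 12 h, 79, 46 and 52 at 24 h, 42, 35 and 36 at 36 h, with 43, 46 and 24 at 48 h. It was among the genes that fell again between 12 h and 24 h (-1.31 ± 0.30, adjusted p = 0.0196), and its change at 48 h was -3.63 ± 0.27 (adjusted p = 9.29e-08). Sema6a changed by -3.00 ± 0.45 and Sema6d by -2.65 ± 0.31 at 48 h, both below every 0 h library, but Sema6a at 12 h stood at 1373 in the first library and 424 in the second and did not pass there (-0.58 ± 0.50, adjusted p = 0.336).

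Sema7a, the lipid-anchored ligand of Plxnc1 and of integrins, followed a course of its own. Its scores were 369, 620 and 339 at 0 h, 38 and 37 at 12 h, 81, 198 and 183 at 24 h, 35, 49 and 59 at 36 h, then 101, 56 and 144 at 48 h. After the fall at 12 h (-3.47 ± 0.44) it was higher at 24 h than at 12 h (1.91 ± 0.44, adjusted p = 0.02) and lower again at 36 h than at 24 h (-1.60 ± 0.39, adjusted p = 0.0151). At 48 h it was below every 0 h library (-2.18 ± 0.39, adjusted p = 0.000261). Of the class 4 members 4 of 5 fell, with Sema4g at -2.82 ± 0.48, Sema4d, the Plxnb1 ligand, at -2.24 ± 0.31, Sema4c, the Plxnb2 ligand, at -1.80 ± 0.16, and Sema4b at -0.86 ± 0.17. Sema5b fell by 1.45. Sema4f did not pass (-0.18 ± 0.48, adjusted p = 0.749), with 145, 65 and 30 in the 48 h libraries against 63, 57 and 116 at 0 h.

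Among their receptors, the plexins and neuropilins, 6 of 10 fell and 2 rose at 48 h (median -0.54). Plxnd1, the receptor for Sema3e that is known for its place on endothelium, scored 2607, 2788 and 3181 at 0 h, 638 and 376 at 12 h, 309, 341 and 354 at 24 h, 312, 274 and 275 at 36 h, with 320, 580 and 615 at 48 h. Culture and 0 h libraries were well separated, and the change at 48 h was -2.55 ± 0.23 (adjusted p = 5.57e-07). Over the same time 10 of the 12 endothelial markers fell, among them Kdr, which kept scores of 733, 498 and 386 at 48 h, while Flt1 and Eng rose (1.25 and 1.08), and their part in the Plxnd1 change was not tested.

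Plxna4, which pairs with Nrp1 to read Sema3a, fell late. It scored 398, 435 and 486 at 0 h, 851 and 476 at 12 h, 186, 145 and 319 at 24 h, 133, 108 and 143 at 36 h, then 155, 113 and 121 at 48 h. At 12 h it did not pass the test (0.54 ± 0.31, adjusted p = 0.149), the step from 12 h to 24 h was -1.63 ± 0.31 (adjusted p = 0.00743), and at 48 h every library was below the 0 h range (-1.76 ± 0.27). Plxnb1, the Sema4d receptor, fell early and stayed down, with 1195, 834 and 1083 at 0 h, 454 and 359 at 12 h, 431, 374 and 369 at 24 h, 522, 498 and 492 at 36 h, with 491, 456 and 341 at 48 h (-1.27 ± 0.16, adjusted p = 1.1e-05). The row of Plxna3 also fell (-1.20 ± 0.10), as did Nrp2 (-0.70 ± 0.16) and Nrp1 (-0.39 ± 0.13, adjusted p = 0.0137), and the Nrp1 call was lost without the second 0 h library (-0.26).

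Plxna1 and Plxnb2 were the receptors of this family that rose. Plxna1, a main signalling partner of the neuropilins, went from 1995, 1852 and 2587 at 0 h to 4570, 4426 and 3927 at 48 h (1.02 ± 0.20, adjusted p = 0.000503). Plxnb2, the Sema4c receptor, went from 4459, 4338 and 4570 to 7393, 8276 and 7049 (0.76 ± 0.13, adjusted p = 0.000122), most of it between 24 h and 36 h (0.59 ± 0.13, adjusted p = 0.00772). Plxna2 and Plxnc1 were higher at 12 h than at 0 h (0.88 ± 0.17 and 0.81 ± 0.21), fell between 24 h and 36 h (-0.83 ± 0.16 and -0.76 ± 0.19), and at 48 h did not pass against 0 h (adjusted p = 0.14 and 0.208).

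Ephrin-A ligands, which are tied to the membrane by a lipid anchor, fell in 3 of 5 genes at 48 h and rose in none. Efna1 scored 784, 858 and 739 at 0 h, 128 and 148 at 12 h, 112, 153 and 232 at 24 h, 106, 114 and 137 at 36 h, then 135, 155 and 203 at 48 h. The level was down in full at 12 h and did not come back, and the change at 48 h was -2.28 ± 0.23 (adjusted p = 1.54e-06). Efna2 declined after 12 h, with 438, 448 and 453 at 0 h, 435 and 387 at 12 h, 193, 187 and 248 at 24 h, 119, 149 and 116 at 36 h, with 113, 126 and 174 at 48 h. The falls from 12 h to 24 h (-0.98 ± 0.19, adjusted p = 0.00924) and from 24 h to 36 h (-0.70 ± 0.17, adjusted p = 0.0146) both passed, and the total at 48 h was -1.71 ± 0.17 (adjusted p = 1.37e-06).

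Efna3, 34.3 kb from Efna1 and 10.4 kb from Efna4 on chromosome 3, dipped and recovered in part. It scored 255, 230 and 233 at 0 h, 41 and 48 at 12 h, 32, 26 and 63 at 24 h, 173, 171 and 70 at 36 h, then 177, 123 and 102 at 48 h. The fall at 12 h was -2.40 ± 0.41 (adjusted p = 0.00029) and the rise from 24 h to 36 h was 1.74 ± 0.37 (adjusted p = 0.00794), but the third 36 h library stayed near the 24 h values. At 48 h all libraries were still below 0 h, and the difference just missed the threshold (-0.87 ± 0.37, adjusted p = 0.0505). Efna4 was lower from 12 h on (-1.13 ± 0.18 at 48 h, adjusted p = 0.000117).

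Efna5, known as a repellent of retinal axons, had a 12 h value above both ends of the course. The scores were 498, 450 and 950 at 0 h, 1908 and 866 at 12 h, 673, 595 and 774 at 24 h, 737, 706 and 628 at 36 h, with 705, 550 and 676 at 48 h. The high values were in the third 0 h library and the first 12 h library, both of which had longer transcripts above their group means, and the second 12 h library lay within the 0 h range. The score was 2.15-fold higher at 12 h (adjusted p = 0.0104), and the change at 48 h was 0.10 ± 0.29 (adjusted p = 0.77).

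The 3 ephrin-B ligands, which span the membrane, went different ways. Efnb3, a midline repellent in the spinal cord that lies at chr11:69554092-69560205, had the largest change of the 59 genes. It scored 1497, 1386 and 1486 at 0 h, 194 and 156 at 12 h, 49, 36 and 76 at 24 h, 14, 17 and 19 at 36 h, then 18, 12 and 15 at 48 h. The decline went on from step to step, by -3.06 ± 0.28 over the first 12 h, -1.74 ± 0.28 from 12 h to 24 h (adjusted p = 0.00335) and -1.57 ± 0.25 from 24 h to 36 h (adjusted p = 0.00189). At 48 h the total was -6.53 ± 0.25, or 92.1-fold (adjusted p = 2.95e-10). Efnb2, known as an arterial marker and the ligand of Ephb4, rose from 2458, 3008 and 3314 at 0 h to 3577, 4560 and 4264 at 48 h (0.50 ± 0.16, adjusted p = 0.0139), a call lost without the first 0 h library or the second 48 h library (0.38 and 0.43). Efnb1, which sets borders in the neural crest and face, did not pass at 48 h (0.16 ± 0.11, adjusted p = 0.191).

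EphA receptors split, with 5 of 7 lower and 2 higher at 48 h. Epha2, a receptor kinase common on epithelial and tumour cells, scored 647, 484 and 526 at 0 h, 2122 and 2062 at 12 h, 3627, 3423 and 3296 at 24 h, 4338, 4570 and 4892 at 36 h, with 5030, 4338 and 5109 at 48 h. The replicates lay close together and each step up to 36 h passed (1.93 ± 0.12, 0.72 ± 0.12 and 0.41 ± 0.10), giving 3.06 ± 0.10 at 36 h. The step to 48 h did not pass (0.07 ± 0.10, adjusted p = 0.847), and the change at 48 h was 3.13 ± 0.10 or 8.77-fold (adjusted p = 9.13e-11). Epha3, a receptor for ephrin-A5 that has been studied in mesenchyme of the heart, scored 11655, 16542 and 15625 at 0 h. It fell to 3071 and 3030 at 12 h and scored 2548, 2872 and 2606 at 24 h, 2497, 2569 and 3304 at 36 h, then 2258, 3497 and 2601 at 48 h (-2.40 ± 0.17, adjusted p = 5.43e-08).

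Epha6 had low and unsteady scores in culture. They were 97, 90 and 100 at 0 h, 2 and 2 at 12 h, 18, 42 and 27 at 24 h, 38, 27 and 3 at 36 h, with 3, 2 and 19 at 48 h. All culture libraries were below all 0 h libraries, and the change at 48 h was -3.96 ± 0.82 (adjusted p = 0.00077), but it became -4.80 without the third 48 h library and -2.67 when 10 was added before the logarithm. The step up from 12 h to 24 h passed at 3.24 ± 0.91 (adjusted p = 0.0469). Epha7 and Epha5 fell (-1.50 ± 0.12 and -1.41 ± 0.27). Epha4, the receptor that takes ephrins of both classes, was down at 12 h (-1.33 ± 0.24, adjusted p = 0.000464) and up from 24 h to 36 h (0.70 ± 0.22, adjusted p = 0.0387), and its 48 h libraries of 4420, 2732 and 2282 overlapped the 0 h range of 3921 to 4794 (-0.54 ± 0.22, adjusted p = 0.0398), a call lost when any of 5 libraries was left out. Epha1, best known from epithelia, was called higher at 48 h (0.95 ± 0.36, adjusted p = 0.0322) with overlapping groups of 207, 108 and 112 at 0 h and 163, 403 and 278 at 48 h, and the call was lost when any of 4 libraries was left out, being 0.64 without the second 48 h library. The high 0 h value stood in the library with the highest epithelial markers.

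EphB receptors all fell at 48 h, 5 of 5, and 4 of them by more than 2-fold. Ephb1 went down over 24 h, from 145, 116 and 158 at 0 h to 100 and 77 at 12 h, 41, 53 and 73 at 24 h, 42, 44 and 45 at 36 h, then 53, 39 and 36 at 48 h (-1.70 ± 0.24, adjusted p = 3.13e-05). At 12 h its change just missed the threshold (-0.65 ± 0.27, adjusted p = 0.0508). Ephb6, which lacks kinase activity, scored 1351, 1610 and 1385 at 0 h, 530 and 555 at 12 h, 494, 401 and 582 at 24 h, 492, 466 and 398 at 36 h, with 422, 447 and 544 at 48 h (-1.62 ± 0.14, adjusted p = 4.61e-07). It was at its culture level from 12 h on.

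Ephb4, the Efnb2 receptor known as a venous marker, scored 6948, 5990 and 6948 at 0 h, 3093 and 2872 at 12 h, 2548, 2431 and 2310 at 24 h, 2431, 2387 and 2114 at 36 h, then 2488, 2310 and 2031 at 48 h. The replicates were tight and the change at 48 h was -1.54 ± 0.09 (adjusted p = 1.67e-08), so the ligand and this receptor moved in opposite directions. Ephb3 fell at 12 h and was slightly up from 24 h to 36 h (0.45 ± 0.14, adjusted p = 0.0387), ending at -1.37 ± 0.14. Ephb2 did not pass at 12 h (-0.08 ± 0.12, adjusted p = 0.589) and fell from 12 h to 24 h (-0.60 ± 0.12, adjusted p = 0.0125), ending at -0.90 ± 0.11.

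**Figure D2:**
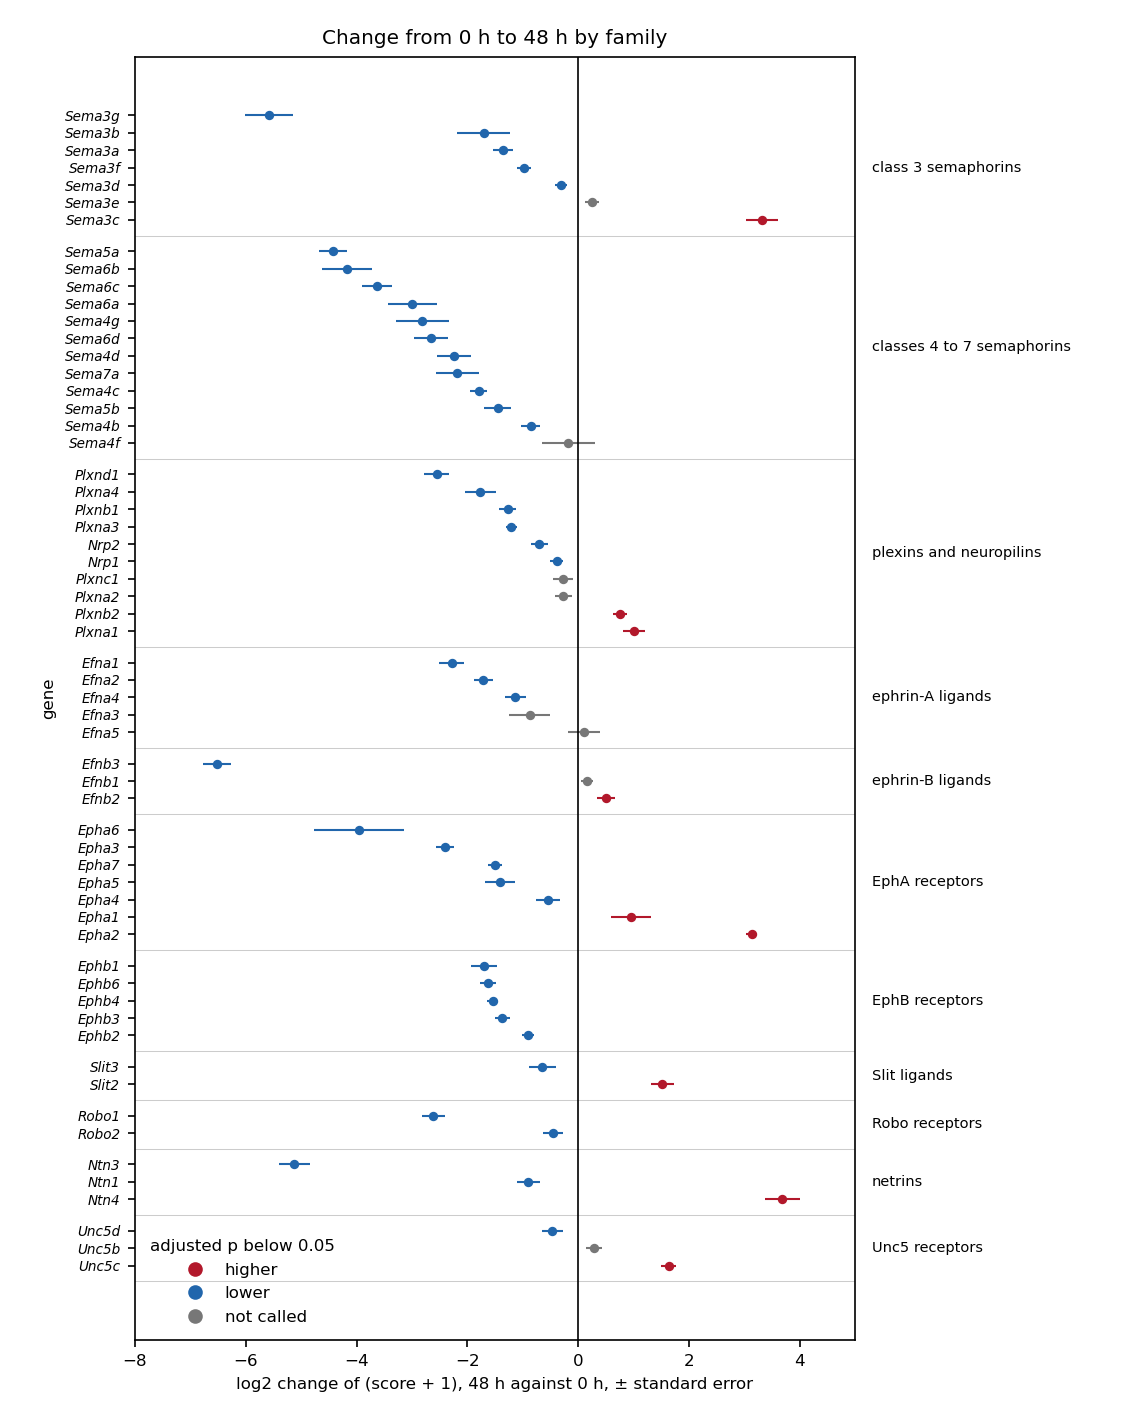
Log2 change of (score + 1) from 0 h to 48 h for each of the 59 genes by family, with bars for the standard error and colour for genes that passed an adjusted p below 0.05. Most families lie left of 0, semaphorins of classes 4 to 7, ephrin-A ligands, EphB and Robo receptors have no gene called higher, and the largest values are Efnb3 at -6.53 and Ntn4 at 3.69.

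Of the Slit and Robo genes, Slit2 rose at 48 h and Slit3, Robo1 and Robo2 fell. Slit2, the secreted repellent, scored 3460, 3703 and 3721 at 0 h, 16542 and 9424 at 12 h, 12096, 11095 and 10727 at 24 h, 12983, 11095 and 7924 at 36 h, with 8305, 11655 and 11655 at 48 h. Every culture library was above every 0 h library (1.52 ± 0.21 at 48 h, or 2.87-fold, adjusted p = 2.81e-05), although the row stands for a short transcript of 3 exons that the annotation classes as a retained intron. Its receptor Robo1 fell, from 3106, 3070 and 4533 at 0 h to 730 and 531 at 12 h, 412, 474 and 609 at 24 h, 499, 499 and 364 at 36 h, then 512, 699 and 521 at 48 h (-2.62 ± 0.21, adjusted p = 1.73e-07).

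Robo2, 848.3 kb from Robo1 on chromosome 16, changed by only -0.46 ± 0.18 at 48 h (adjusted p = 0.0362), and the call was lost without the second or the third 0 h library or the first 48 h library. Slit3 scored 1718, 2137 and 3082 at 0 h, 3208 and 1671 at 12 h, 1627, 1229 and 1116 at 24 h, 2110, 1959 and 2205 at 36 h, with 1686, 1351 and 1304 at 48 h. The 48 h values were below the 0 h values (-0.64 ± 0.24, adjusted p = 0.0302), but 1686 and 1718 nearly touched, and the call was lost when any of 4 libraries was left out, the change being -0.41 without the third 0 h library, the high one.

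The netrins also held genes that moved far in opposite directions. Ntn3 scored 2311, 2432 and 2212 at 0 h, 512 and 522 at 12 h, 211, 142 and 245 at 24 h, 129, 115 and 82 at 36 h, then 106, 59 and 45 at 48 h. Each step to 36 h passed (-2.16 ± 0.31, -1.41 ± 0.31 and -0.86 ± 0.28), and the total at 48 h was -5.12 ± 0.28, or 34.8-fold down (adjusted p = 6.22e-09). Ntn4, a netrin of basement membranes, was near the bottom of the scale at 0 h with 25, 15 and 9, and scored 441 and 436 at 12 h, 418, 339 and 221 at 24 h, 284, 321 and 313 at 36 h, with 210, 264 and 159 at 48 h. Its mean was highest at 12 h, at 4.77 ± 0.35 above 0 h (27.3-fold, adjusted p = 2.31e-07). At 48 h it was still 3.69 ± 0.31 above 0 h (adjusted p = 3.32e-07). The later steps did not pass (adjusted p = 0.422 from 12 h to 24 h, 0.94 to 36 h and 0.47 to 48 h). Ntn1, the classical netrin, did not pass at 12 h (0.38 ± 0.23, adjusted p = 0.186), fell from 12 h to 24 h (-1.09 ± 0.23, adjusted p = 0.0147) and ended at -0.90 ± 0.21.

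The promoter windows of Ntn3 and Ntn4, the netrins that moved most in either direction, are printed on the same terms as above. The Ntn3 window is chr17:24209338-24209637 on the minus strand, and the Ntn4 window is chr10:93640799-93641098 on the plus strand, both with the start of the listed transcript inside.
Ntn3: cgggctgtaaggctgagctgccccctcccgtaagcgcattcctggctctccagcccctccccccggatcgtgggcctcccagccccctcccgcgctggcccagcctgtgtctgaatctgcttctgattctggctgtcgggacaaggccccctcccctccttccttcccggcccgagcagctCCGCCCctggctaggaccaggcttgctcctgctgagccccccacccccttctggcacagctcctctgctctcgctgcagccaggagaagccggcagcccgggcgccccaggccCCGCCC
Ntn4: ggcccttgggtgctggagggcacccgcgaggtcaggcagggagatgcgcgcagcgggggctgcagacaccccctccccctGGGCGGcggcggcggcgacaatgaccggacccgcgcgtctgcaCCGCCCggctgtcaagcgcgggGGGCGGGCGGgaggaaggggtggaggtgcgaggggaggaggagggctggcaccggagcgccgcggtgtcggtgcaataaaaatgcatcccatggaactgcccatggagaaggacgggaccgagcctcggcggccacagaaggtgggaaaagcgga
Ntn3 held 2 GC boxes and 16 CpG, and Ntn4 held 4 GC boxes, of which a pair overlap, and 31 CpG. RefSeq promoter entries were found for 51 of the 59 genes, with 64 windows. A GC box was in 46 of the 64 and in 35.7% of all 32851 windows, a TATA box in 2 and in 13.6%, an E-box in 4 and in 7.15%, and an AP-1 site in 3 and in 7.81%. The median CpG count was 21 in the guidance windows and 7 in all windows. These are matches of letters and no measure of binding, and Efnb3 has no entry. The set of all windows was not limited to genes with a row in the expression table, whereas the guidance windows were.

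Unc5 receptors, which turn netrins into repellents, were mixed. Unc5c scored 929, 774 and 959 at 0 h, 1456 and 1186 at 12 h, 1535, 1483 and 1701 at 24 h, 1896, 2021 and 1595 at 36 h, then 3014, 2220 and 3082 at 48 h. All culture libraries were above all 0 h libraries and the rise at 48 h was 1.63 ± 0.14, or 3.1-fold (adjusted p = 3.92e-07). Unc5d rose at 12 h (0.69 ± 0.22, adjusted p = 0.0145), fell from 12 h to 24 h and again to 36 h (-0.82 ± 0.22 and -0.73 ± 0.19), and was only just called lower at 48 h (-0.46 ± 0.19, adjusted p = 0.0451), a call lost without the third 0 h library (-0.37) and under other alternatives. Unc5b, known from vessels, did not pass at 48 h (0.29 ± 0.14, adjusted p = 0.09).

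**Figure D3:**
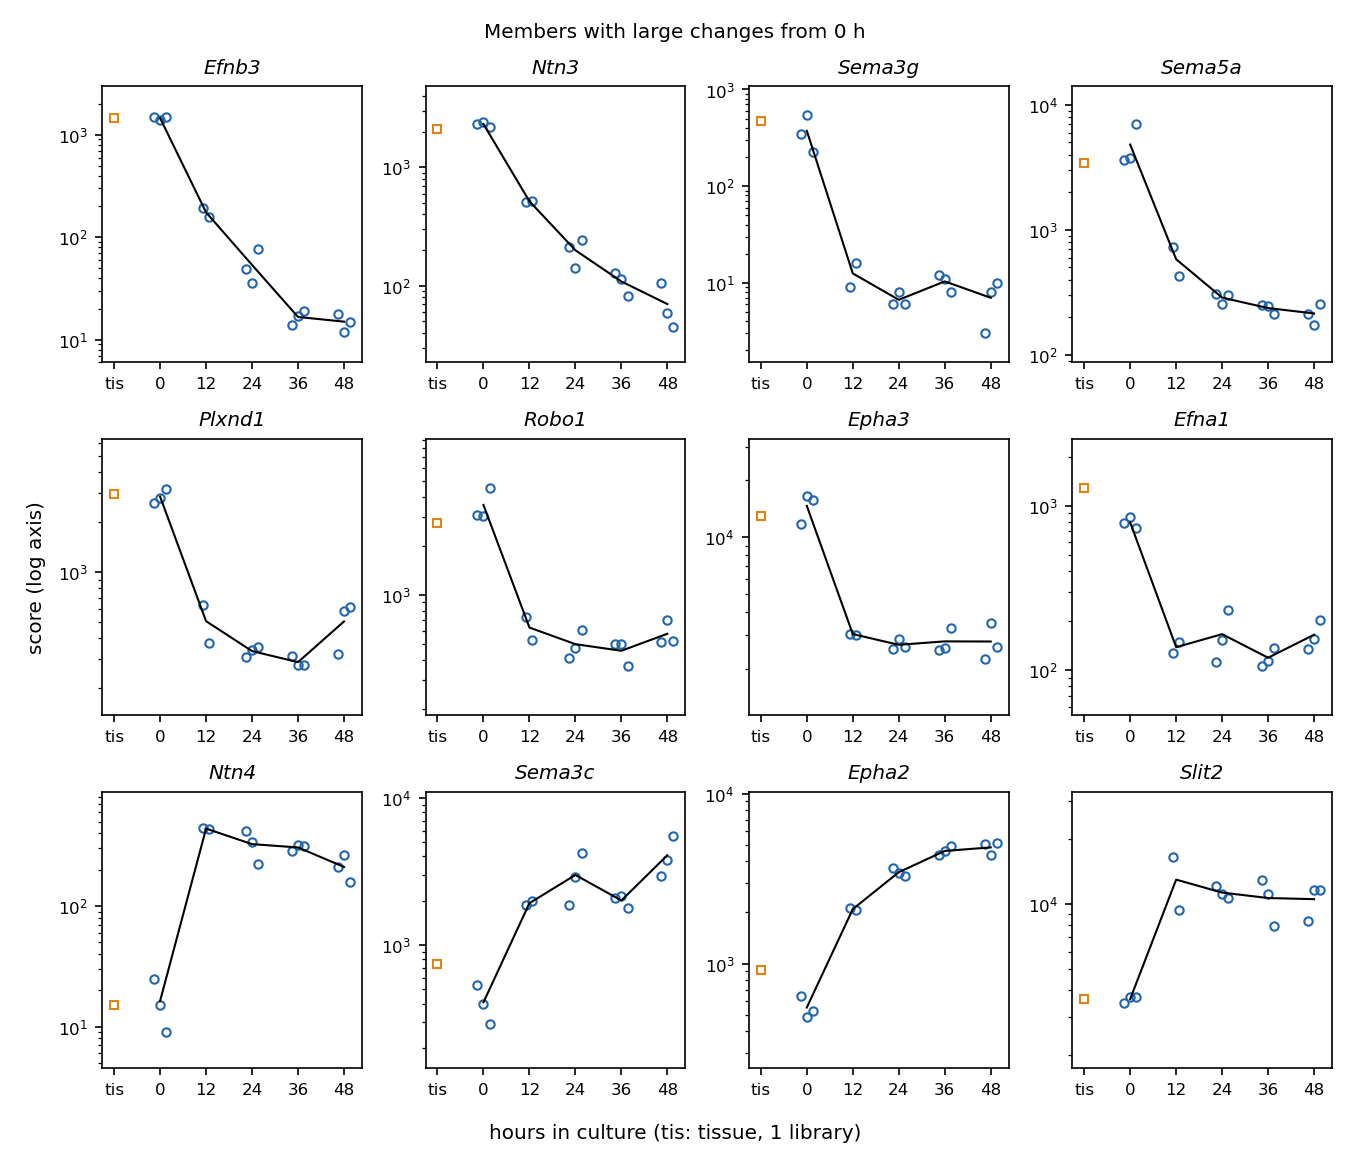
Scores (log axis) of 12 guidance genes against hours in culture, with a circle per mDMC library, a line through the means and a square for the tissue library. Efnb3, Ntn3, Sema3g, Sema5a, Plxnd1, Robo1, Epha3 and Efna1 drop within 12 h, and Ntn4, Sema3c, Epha2 and Slit2 climb. No culture library lies inside the 0 h range in any of the 12 panels, which show genes picked for large changes from 0 h. This separation therefore says nothing about the guidance genes as a set. Culture libraries overlap the 0 h range in Epha1, Efna5 and Slit3, among others.

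Changes inside the culture period were fewer and less firm than those from 0 h. Of the 8 genes that fell from 12 h to 24 h, Efnb3, Plxna4, Ntn3, Sema6c, Ntn1, Efna2 and Unc5d are described above with Ephb2, and the 4 that rose were Epha6, Sema7a, Epha2 and Efnb1 (0.52 ± 0.12, adjusted p = 0.0209). The count of falls was 0 without the first 12 h library, and the count of rises was then 1, in a fit where the lone 12 h library is assumed to vary like the other times. From 24 h to 36 h Efna3, Epha4, Plxnb2, Nrp2 (0.56 ± 0.16, adjusted p = 0.0271), Ephb3 and Epha2 rose, and Sema7a, Efnb3, Ntn3, Plxna2, Plxnc1, Unc5d and Efna2 fell. Leaving out any single library moved the rises to between 2 and 8 and the falls to between 2 and 10. In the last step the 9 genes below an unadjusted 0.05 had limma adjusted p-values from 0.136 (Unc5c, 0.58 ± 0.14) to 0.364 (Slit3, -0.54 ± 0.24), so none can be called changed there.

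**Figure D4:**
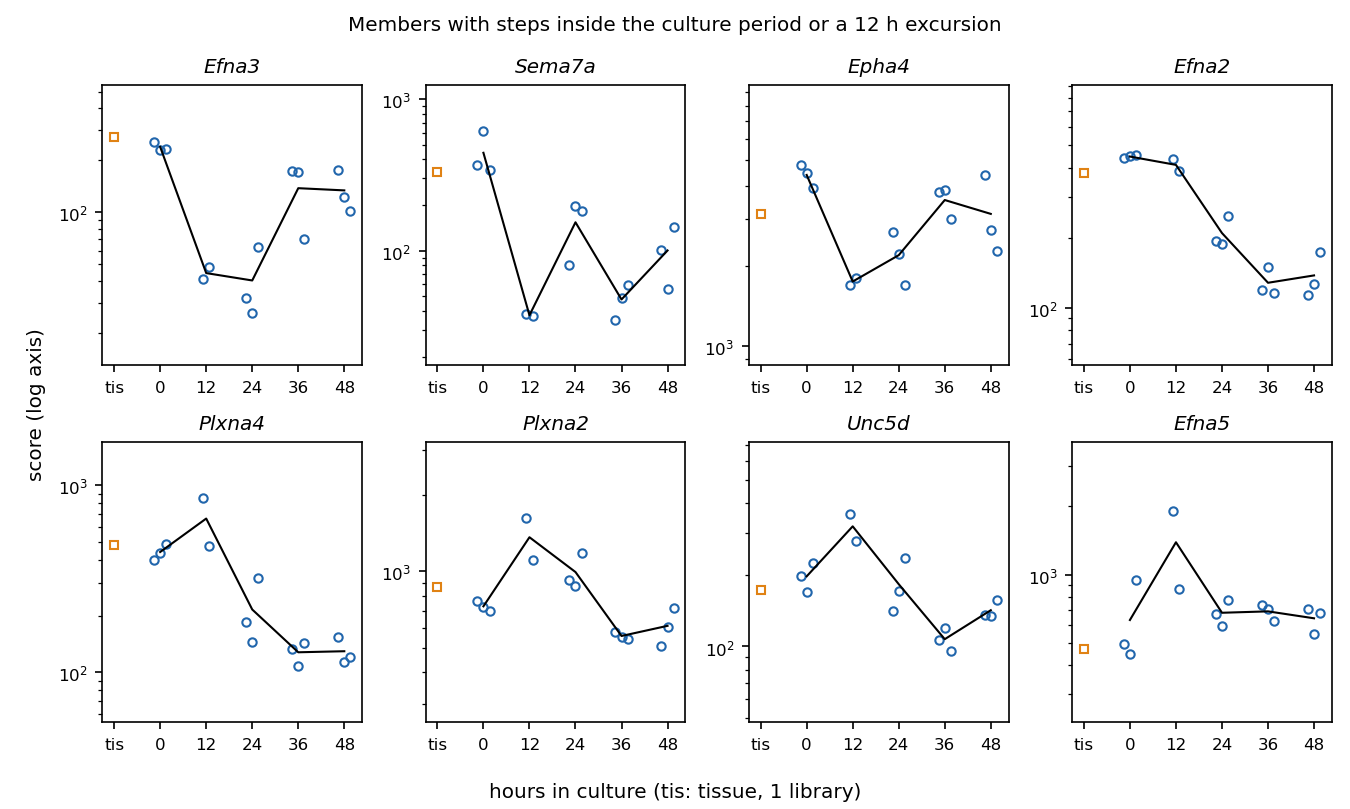
Scores (log axis) of 8 guidance genes whose course bends between 12 h and 36 h or whose 12 h level stands apart, with a circle per mDMC library, a line through the means and a square for the tissue library. Efna3, Sema7a and Epha4 dip and recover in part, Efna2 and Plxna4 decline after 12 h, and Plxna2, Unc5d and Efna5 are highest at 12 h, where the 2 libraries differ.

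Undissociated tissue was set beside the freshly isolated cells. In the single tissue library 0 of the 59 genes differed from the 0 h mean by more than 2-fold, or 2 when the first 0 h library was left out, where 2.56% of all transcripts were above and 1.22% below by that much, so the count is near the background. The differences ran from -0.83 for Sema6a to 0.91 for Sema3c, with a median of -0.06. In 23 genes the tissue value lay within the 0 h range, in 16 above it and in 20 below it. Sema3c, Epha2 and Efna1 were higher in tissue (744, 915 and 1279) than in any 0 h library, and Ntn4, Slit2 and Efnb3 (15, 3643 and 1446) were within the 0 h range. No test was run on the single tissue library.

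Genes that work beside these ligands and receptors were counted in the same fit, in which 37.1% of all transcripts rose and 34% fell at 48 h. Of 20 co-receptors, other ligands and partners, 15 had a row, 5 rose and 8 fell at 48 h (median -0.51). Met, a receptor kinase that associates with B-type plexins, rose (3.29, from 161, 147 and 106 to 1373, 1288 and 1348), as did Flrt2, an Unc5 ligand (1.12), and the Wnt receptor Ryk (0.78). The netrin receptors Neo1 and Dcc fell (-1.40 and -1.41), as did the neogenin ligands Rgma and Rgmb (-1.60 and -1.28) and the endothelial Robo4 (-8.49, at 0 in each 48 h library). Of 44 intracellular signalling genes 42 had a row, 43 rows in all, and 14 rows rose and 16 fell (median -0.08), shares near those of all transcripts. Rnd1, a small GTPase that binds plexins, rose (3.23), as did Ablim1 (3.04), the kinase Rock2 (2.93) and the actin oxidase Mical2 (2.16), whereas the semaphorin mediator family member Dpysl4 (-2.83), the actin regulator Evl (-1.92) and the kinase Pak1 (-1.44) fell. Their families did not move as one, since Dpysl3 (1.32) and Pak2 (0.52) rose and Dpysl2 fell (-1.05).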

How the data were processed

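The authors trimmed the reads, aligned them with bowtie to the mouse transcriptome (mm10, Ensembl annotation) and estimated expression with RSEM (1.1.21 per the submitters' processing notes, while the study's methods name another version). The deposited table holds 1 expression score per transcript and library, a whole-number score on a normalized scale. The table calls them cpm, but library totals of 21357605 to 21365980 exceed that unit, and the normalization is not given in the sources used here. The scores have one distribution in all libraries, so the depth is unknown and no counting interval can be given. All columns were used, and groups and times were taken from the sample labels. Of 12089 transcripts 11973 matched the GENCODE annotation of GRCm38, the build named mm10 by the authors, and 116 did not. Of the 59 rows analysed 10 carry transcripts that do not code for protein (5 with a retained intron, 3 processed transcripts and 2 subject to nonsense-mediated decay), and whether a value belongs to the gene or the transcript was not stated.

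A transcript was tested if 2 or more of the 14 mDMC libraries gave it 1 ppm or more of their summed scores. Log2(score + 1) was fitted in limma (3.58.1, under R 4.3.3), each time having its own mean, with an intensity trend, and p-values were adjusted by Benjamini-Hochberg over all transcripts. On simulated data for 48 h against 0 h (12079 transcripts), 81 of 100 changes of 2-fold and 96 of 100 of 4-fold were recovered, and 5 of 11879 unchanged transcripts were called. The simulated noise was independent in each library, without deviations linked to transcript length, and few transcripts were changed. In the data 37.1% of transcripts rose and 34% fell, so these rates need not hold there. Genes shown in every library were, per family, those with the largest called changes at 48 h or in a step and those whose 12 h mean lay more than 1 log2 unit above both the 0 h and the 48 h means or below both. Every other gene was named at least once, and any library scores, plots or further description given for one of these were chosen after its values were seen. The genes, marker lists and pathway lists were chosen with earlier results of these data known. Alternatives were another pseudocount, filter, centring, fold rule or set of time points, a replicate block, each library left out in turn, and the third 0 h and first 12 h libraries left out together, the last chosen after the data had been seen.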

Additional observations from a re-analysis of the deposited data

How the results depend on the processing

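Of 51 genes called at 48 h, none reversed under any alternative, and 8 lost the call under at least 1 (Efnb2, Epha1, Epha4, Nrp1, Robo2, Sema3d, Slit3 and Unc5d). Of the 8 not called, 4 passed under some alternative, namely Efna3 under 7 (-1.09 to -0.82, lowest adjusted p = 0.00856 with only the compared times), Unc5b without 48 h replicate 1 (0.49, adjusted p = 5.89e-04), Plxna2 without 48 h replicate 3 (-0.40, adjusted p = 0.0479) and Efna5 as given below. Requiring more than 2-fold as well as an adjusted or an unadjusted p below 0.05 left 7 higher at 12 h, 5 higher at 24 h, 2 higher from 12 h to 24 h and 1 higher from 24 h to 36 h. With that rule the falls at 12 h and at 24 h against 0 h were 26 and 32 (adjusted). The falls from 12 h to 24 h were 5 (adjusted), and from 24 h to 36 h 2 (adjusted) and 4 (unadjusted). The share of all transcripts passing that rule was taken only for 48 h against 0 h, so these counts have no background beside them. With only the compared times in the fit, 2 rose and 1 fell from 12 h to 24 h. Without the third 0 h and first 12 h libraries, 1 rose and 1 fell in that step. Leaving out 1 library at a time gave 1 to 4 rises and 0 to 12 falls from 12 h to 24 h (0 without 12 h replicate 1), 2 to 8 rises and 2 to 10 falls from 24 h to 36 h (2 falls without 24 h replicate 3 or 36 h replicate 1), and 0 to 2 rises from 36 h to 48 h (2 without 48 h replicate 1). The same gave 7 to 10 rises and 38 to 43 falls at 48 h, and 0 to 2 genes past 2-fold in tissue (2 without 0 h replicate 1). The cause of these shifts was not tested. Efna5 ranged from -0.10 to 0.43 over the libraries left out (-0.03 without 0 h replicate 1, -0.10 without replicate 2), and 0.43 was called only when 12 h replicate 1 was left out together with 0 h replicate 3 (adjusted p = 0.0162). Sema4f ranged from -0.74 to 0.37, turning to 0.13 without 0 h replicate 3 (0.13 also with 12 h replicate 1 left out together with it) and 0.37 without 48 h replicate 3, none of them called. With 10 added before the logarithm, Efnb3 was -5.88, Sema3g -4.43 and Ntn4 3.09 at 48 h, all still called.

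The labels do not say whether the replicate numbers pair the samples. After each time's mean was removed, 26 same-numbered pairs correlated between -0.25 and 0.32 (median 0.07, 11 above 0.1). Differently numbered pairs were not set beside them, so these values cannot decide whether the samples are paired. With a replicate block 9 genes rose and 42 fell at 48 h, and 3 rose and 12 fell from 12 h to 24 h.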
